A study of Mus musculus with 4 samples.

Results

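Genes for voltage-gated sodium channels, voltage-gated calcium channels, HCN channels and the sodium leak channel were followed through single-nucleus RNA sequencing of the mouse mediobasal hypothalamus. The members were all gene symbols of the sodium channel subunits (Scn genes of the alpha and beta series), the calcium channel pores (Cacna1 genes), their alpha2delta and beta subunits (Cacna2d and Cacnb genes), the HCN pores (Hcn genes), and Nalcn with its partners Unc79 and Unc80. This gave 39 of the 31053 symbols measured, and all 39 had at least 1 UMI (a counted RNA molecule) in neurons. The mice were wild type, ate chow freely and received saline or insulin before dissection, and the labels give no dose, route, time, age, sex or number of mice per library. There were 2 Saline and 2 Insulin libraries, and a deposited table placed 1 of each in sequencing run 230 and 1 of each in run 232. Whether a library holds 1 mouse or several is not in the labels. For insulin against saline, the p-values rest on the spread between libraries of the same treatment. Where the run is a block, differences between runs are taken out first. The p-values that compare cell types or neuron populations rest on the spread left after differences between whole libraries are taken out.

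Each library held 8352 to 9796 annotated nuclei and 63590421 to 71391593 UMIs, and the members contributed 1940728 UMIs in neurons. Run and sex coincided: Xist, the X inactivation transcript, stood at 4.53 and 4.88 CPM (counts per 1000000 UMIs of the same nuclei and library) in the libraries of run 230, against 1614 and 1713 CPM in those of run 232. Uty, from the Y chromosome, showed 177 and 175 CPM in run 230 against 1.40 and 1.02 CPM in the other run. By these transcripts, not by the labels, the libraries of a group differed in sex, and a standard deviation (SD) over libraries includes a difference between runs and sexes, which cannot be told apart. Of the barcode sequences, 318 occurred in 2 libraries, 244 of them within a run. In run 230, 179 were shared and 86.0% of these carried the same annotation in both libraries. Leaving out the 488 nuclei with a barcode shared within a run changed the member calls between cell types from 171 to 171 and those between neuron populations from 610 to 611.

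Voltage-gated sodium channels open on depolarisation and carry the rising phase of the action potential. Calcium channels turn depolarisation into calcium entry: L-type channels couple to slow signalling and gene expression, P/Q-, N- and R-type channels to transmitter release, and T-type channels to burst firing from hyperpolarised levels. HCN channels open on hyperpolarisation and pass an inward pacemaker current, and NALCN passes a steady sodium leak that sets the resting potential. In the hypothalamus these currents shape the spontaneous firing of neurons that control feeding, growth hormone release and reproduction.

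The authors' annotation was checked against marker genes before it was used. Of 39 markers, 31 were highest in the type they mark. The nuclei annotated Endothelial went against their label: none of 5 endothelial markers was highest there, Flt1 was at 279 CPM, Cldn5 at 1.69 CPM, Cdh5 at 0.319 CPM and Slco1a4 at 0.822 CPM, while Rax was at 84.4 CPM and Col23a1 at 2423 CPM, both known from tanycytes. Nuclei annotated as mural cells held the endothelial markers as well as the mural ones, with Cldn5 at 538 CPM, Slco1a4 at 1011 CPM and Rgs5 at 598 CPM. The former are called the Rax and Col23a1 nuclei here, and the latter annotated mural nuclei. Nuclei annotated as microglia held the microglial marker Cx3cr1 at 578 CPM and also the neuronal marker Syt1 at 808 CPM, against 1876 CPM in neurons. The types and neuron populations were defined by the authors from expression in the same nuclei, possibly including these genes, so a call below describes the annotated groups.

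Promoter sequences are shown for 3 members on which the comparisons below turn, Scn1a, Scn8a and Hcn2. Scn1a and Scn8a had the highest rank correlation across neuron populations of the 496 member pairs compared. Hcn2 was higher in oligodendrocytes than in neurons. The sequences are the 250 bases before a transcription start, from RefSeq on GRCm38.p6, written 5′ to 3′ on the gene's strand with each CG in capitals. Scn1a lies at chr2:66440838-66441087 on the minus strand, Scn8a (the first of its 2 entries) at chr15:100870395-100870644 on the plus strand, and Hcn2 at chr10:79716384-79716633 on the plus strand.
Scn1a: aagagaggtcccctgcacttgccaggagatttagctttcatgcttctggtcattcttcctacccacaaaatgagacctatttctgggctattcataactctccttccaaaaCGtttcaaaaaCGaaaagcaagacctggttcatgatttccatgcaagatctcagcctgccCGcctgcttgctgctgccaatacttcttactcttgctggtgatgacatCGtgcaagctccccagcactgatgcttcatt
Scn8a: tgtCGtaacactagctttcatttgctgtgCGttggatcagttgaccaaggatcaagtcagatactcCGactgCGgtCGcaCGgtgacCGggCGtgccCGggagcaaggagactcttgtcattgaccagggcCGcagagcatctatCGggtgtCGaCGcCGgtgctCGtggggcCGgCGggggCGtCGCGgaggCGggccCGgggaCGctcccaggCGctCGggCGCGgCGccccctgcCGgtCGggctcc
Hcn2: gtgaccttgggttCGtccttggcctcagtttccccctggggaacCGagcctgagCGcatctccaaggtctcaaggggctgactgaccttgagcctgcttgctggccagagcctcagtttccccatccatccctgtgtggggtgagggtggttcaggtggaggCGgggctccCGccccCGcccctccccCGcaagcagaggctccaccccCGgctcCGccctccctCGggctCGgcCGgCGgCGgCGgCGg
The Scn1a window held 4 CG, the Scn8a window 30 and the Hcn2 window 16, and 62.2%, 5.94% and 25.4% of 32851 promoters in the same table held at least as many. The median over all promoters was 6, and 92.1% held at least 1. The table listed 29 of the 39 members, with 39 promoters whose counts ran from 1 to 50 with a median of 8. The second Scn8a entry held 9 CG, and 40.3% of promoters held at least as many, so the difference between Scn1a and Scn8a in this count depended on the entry. The motif searched was CG, which reads the same on both strands.

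Scn1a, Scn2a, Scn3a and Scn8a, the sodium channel pores best known from brain, were abundant in neurons. Scn2a, the pore of the axon and early axon initial segment, was at 377 and 359 CPM in the Saline libraries and at 387 and 349 CPM in the Insulin libraries. Scn9a, a pore best known from sensory and sympathetic neurons, followed at 278 ± 10.1 CPM (SD, n = 4 libraries), Scn1a at 261 ± 13.0 CPM, Scn3a, a pore of developing brain, at 186 ± 2.97 CPM and Scn8a, the pore of nodes and the mature initial segment, at 183 ± 12.1 CPM. Scn7a, an atypical sodium-sensing relative, was at 15.8 ± 1.48 CPM. The skeletal muscle pore Scn4a, the sensory pore Scn10a and the beta subunit Scn4b had 72, 71 and 61 UMIs over all neurons, and Scn11a had 232. Longer genes had higher CPM: across the 39 members, gene span and neuronal CPM had a Spearman rho of 0.796, given as a description. Levels of different genes are therefore compared per kilobase of gene span (CPM per kb). The chemistry was 10x 3′ and intron counting is not given, so scaling of counts with span is assumed. The order of genes per kb can differ from that in CPM.

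Per kilobase, the small sodium channel beta subunits ranked with the pores. Scn2a was at 2.51 CPM per kb, Scn2b at 2.46 and Scn3b at 2.27. They were ahead of Scn9a at 1.79, Scn3a at 1.68, Scn1a at 1.53 and Scn8a at 1.04 CPM per kb. In CPM, Scn2b at 30.2 ± 4.75 and Scn3b at 50.9 ± 3.05 were below all of these pores. Among calcium channel pores the P/Q-type gene Cacna1a led with 3.14 CPM per kb, followed by N-type Cacna1b at 1.93, R-type Cacna1e at 1.29, L-type Cacna1d at 1.28 and L-type Cacna1c at 1.02. The T-type genes were lower, with Cacna1g at 0.722, Cacna1h at 0.524 and Cacna1i at 0.368 CPM per kb. Cacna1f, the L-type pore of the retina, was at 0.112 CPM per kb and Cacna1s, that of skeletal muscle, had 114 UMIs in all neurons. Of the auxiliary subunits Cacnb2 reached 1.96 and Cacna2d1 1.81 CPM per kb, and Cacna2d4 was at 0.0806. Hcn2 was at 2.96 CPM per kb, above Hcn3 at 1.28 and Hcn4 at 0.126. The leak channel genes were close to one another, with Nalcn at 1.39, Unc79 at 1.43 and Unc80 at 1.95 CPM per kb. In CPM, Hcn2, which spans 19.5 kb, was at 57.7 ± 3.61.

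Neurons held more of these channel transcripts than any other type. Counts were summed per library and type, and each type was compared with the mean of the other types by edgeR's quasi-likelihood test, with library as a block. Of the 39 members 32 passed the filter on low counts; Scn4a, Scn10a, Scn11a, Scn4b, Cacna1f, Cacna1s and Hcn4 did not. In neurons 31 of the 32 were higher and 0 lower, where 35.7% of all genes tested were higher and 31.7% lower. The median log2 difference was 1.68 over these members and 0.02 over all genes tested. The exception was Cacna2d4, at 6.88 and 13.9 CPM in the Saline neurons and 6.02 and 10.6 CPM in the Insulin neurons (log2 difference from the other types -0.11, edgeR adjusted p = 0.58). Large differences were those of Cacna1b (log2 3.44 ± 0.16 SE), the N-type pore, and Cacna1e (3.31 ± 0.14), the R-type pore. Cacna1b was at 337 and 288 CPM in the Saline and 308 and 297 CPM in the Insulin libraries of neurons. Over the 8 types and the 32 members, 88 of 256 comparisons were higher and 83 lower, or 34.4% and 32.4%, against 25.3% and 21.5% of comparisons over all genes.

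**Figure D1:**
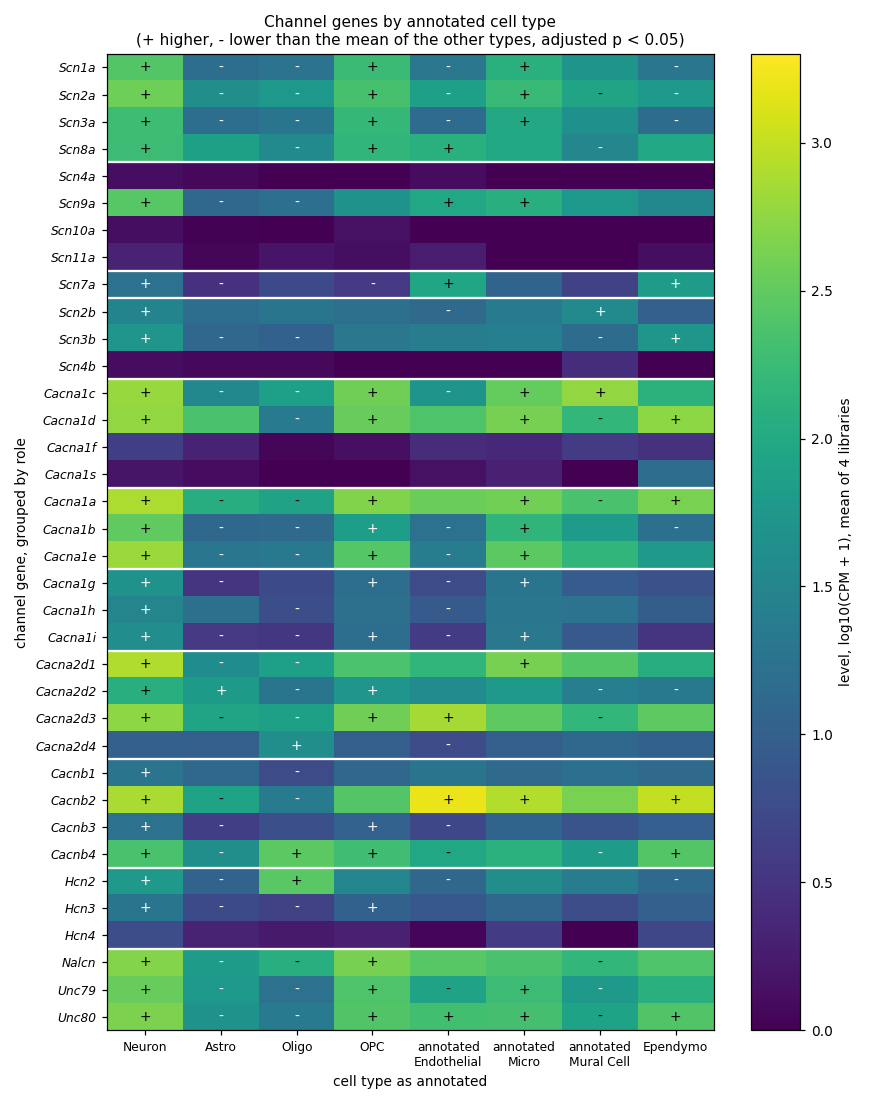
Levels of 36 of the channel genes (rows, grouped by role) in the 8 annotated cell types (columns), as log10(CPM + 1) of the mean of 4 libraries; plus and minus mark an edgeR adjusted p under 0.05 against the mean of the other types. The neuron column holds 28 plus signs and no minus sign, Hcn2 is brightest in the Oligo column, and Cacnb2 is brightest in the nuclei annotated Endothelial.

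Nuclei of the other types also held transcripts of neurons, and 10 such transcripts of neurons (Rbfox3, Snhg11, Syt1, Snap25, Stmn2, Gad1, Gad2, Slc17a6, Slc32a1 and Elavl4) were used as a measure. The ratio of a type's level to the neuronal level had a median over these transcripts of 0.170 in astrocytes, 0.205 in oligodendrocytes, 0.405 in oligodendrocyte precursors (OPC), 0.151 in the Rax and Col23a1 nuclei, 0.522 in annotated microglia, 0.371 in annotated mural nuclei and 0.161 in ependymal nuclei. A member whose ratio did not exceed the highest of the 10 was not told apart there from neuronal RNA by this measure. The highest ratio could lie well above the median, at 0.918 (Gad1) in OPC and 1.13 (Slc32a1) in annotated mural nuclei. A lower ratio therefore does not show that a member's transcripts came from neurons. The median UMI count per nucleus was 8445 in neurons and 1919.5 to 4928.5 in the other types. The 35 members with at least 200 UMIs in neurons were compared with the highest of the 10 transcripts. It was exceeded by 3 in oligodendrocytes, 5 in the Rax and Col23a1 nuclei and 19 in ependymal nuclei. It was also exceeded by 2 in annotated mural nuclei, 3 in annotated microglia, and 1 each in astrocytes and OPC. The highest ratio was smallest in ependymal nuclei, at 0.364 (Gad1). The 19 there include Scn11a, Cacna1f and Hcn4, with 1, 2 and 4 UMIs in these nuclei. Scn11a, with 4 UMIs, was also among the 5 in the Rax and Col23a1 nuclei. No share over all genes stands beside these counts.

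**Figure D2:**
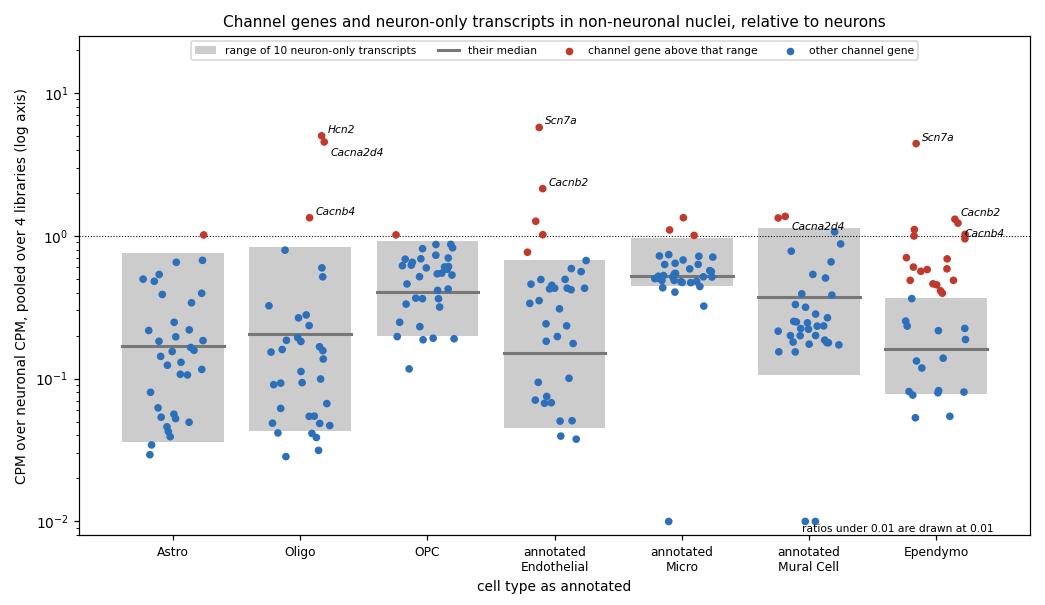
Ratio of each type's CPM to the neuronal CPM (log axis, pooled over 4 libraries) for the 35 channel genes with at least 200 UMIs in neurons (points) beside the range and median of 10 neuron-only transcripts (grey band and line). Hcn2 in oligodendrocytes (501% of the neuronal level) and Scn7a in the nuclei annotated Endothelial (573%) lie far above the band, and the median point of annotated microglia, 0.527, is next to that of the neuron-only transcripts, 0.522.

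Oligodendrocytes, the myelinating glia, had 3 members higher than in the other types and 24 lower, where 27.6% and 29.4% of all genes were. Hcn2 (chromosome 10, 79716634 to 79736108 on GRCm38) was at 272 and 278 CPM in the Saline and 338 and 257 CPM in the Insulin libraries, all above the 53.6 to 61.7 CPM of neurons. Its level was 501% of the neuronal one, and it differed from the mean of the other types by log2 3.90 ± 0.11 (SE, edgeR adjusted p = 3.3e-25). Hcn3 was lower in oligodendrocytes than in the other types. Cacna2d4, an alpha2delta subunit known from photoreceptors, was at 35.2, 53.9, 30.9 and 49.5 CPM (Saline run 230, Saline run 232, Insulin run 230, Insulin run 232), or 454% of its neuronal level. Cacnb4, a calcium channel beta subunit, was at 390 and 305 CPM in the Saline and 245 and 247 CPM in the Insulin libraries, and reached 134% of the neuronal level. Among members with at least 200 UMIs in neurons the lowest ratios were those of Cacnb2, Cacna1e and Cacna1d. Cacnb2 was at 22.0 ± 5.65 CPM, 2.85% of the neuronal level, Cacna1e at 20.4 ± 4.39 CPM, 3.14% of it, and Cacna1d at 22.1 ± 5.04 CPM, 3.87% of it. Scn4a, Scn10a and Cacna1s, rare in neurons too, had 0 UMIs. Lrtm2 overlaps Cacna2d4 on the other strand, and whether counting used strand is not given in the sources used here.

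The Rax and Col23a1 nuclei and the ependymal nuclei shared high Cacnb2 and Scn7a. Cacnb2 (chromosome 2, 14603088 to 14987908), a beta subunit that brings pores to the membrane, was at 1928, 1222, 1622 and 1568 CPM in the Rax and Col23a1 nuclei and at 1247, 858, 903 and 981 CPM in ependymal nuclei (same order of libraries). Every library lay above the neuronal range of 716 to 790 CPM, and the log2 differences from the other types were 2.36 ± 0.12 and 1.62 ± 0.13. Scn7a (chromosome 2, 66673425 to 66784914) was at 61.1 and 22.3 CPM in the Saline and 143 and 119 CPM in the Insulin libraries of the Rax and Col23a1 nuclei, against 13.9 to 17.5 CPM in neurons. In ependymal nuclei it was at 73.1, 93.1, 23.1 and 63.5 CPM, from 96 UMIs. Cacna2d3 was at 707 ± 135 CPM in the Rax and Col23a1 nuclei, 126% of the neuronal level. In these nuclei 6 members were higher and 17 lower (22.4% and 19.2% of all genes), and Cacna1c, the L-type pore, was among the lower ones.

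Ependymal nuclei, from the ciliated lining of the ventricle, had 7 members higher and 6 lower, with 20.9% of all genes in each direction. Cacna1d, an L-type pore that opens at relatively negative potentials, was at 553 ± 74.8 CPM there and at 576 ± 19.6 CPM in neurons. Scn3b was at 55.6 ± 4.73 CPM, Cacnb4 at 257 ± 43.2 CPM, and both were above their neuronal levels of 50.9 ± 3.05 and 221 ± 16.2 CPM by less than the SD of the ependymal libraries. Cacna1s had 11 UMIs in 274 ependymal nuclei, or 5.52 to 34.7 CPM, against 0.444 to 0.716 CPM in neurons; it did not pass the filter and was not tested. The Insulin library of run 230 held only 16 ependymal nuclei. The Saline library of run 232 held the neuronal markers at a summed 2629 CPM in its ependymal nuclei, against 458 to 662 CPM in the others.

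Annotated mural nuclei had 2 members higher and 11 lower (18.7% and 17.1% of all genes). Cacna1c, the L-type pore that drives contraction of vascular smooth muscle, was at 664 and 419 CPM in the Saline and 802 and 472 CPM in the Insulin libraries. These values overlapped the neuronal range of 581 to 698 CPM, and the difference from the mean of the other types was log2 1.75 ± 0.18 (edgeR adjusted p = 3.8e-10). Its ratio to neurons, 87.7%, lay below the highest of the neuron-only transcripts, which was 1.13 in these nuclei. Scn2b, at 37.0 ± 15.4 CPM from 38 UMIs, was the other higher member, and it lost its call without the Saline library of run 232 (adjusted p = 0.064) or without the Insulin library of run 232 (adjusted p = 0.092).

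**Figure D3:**
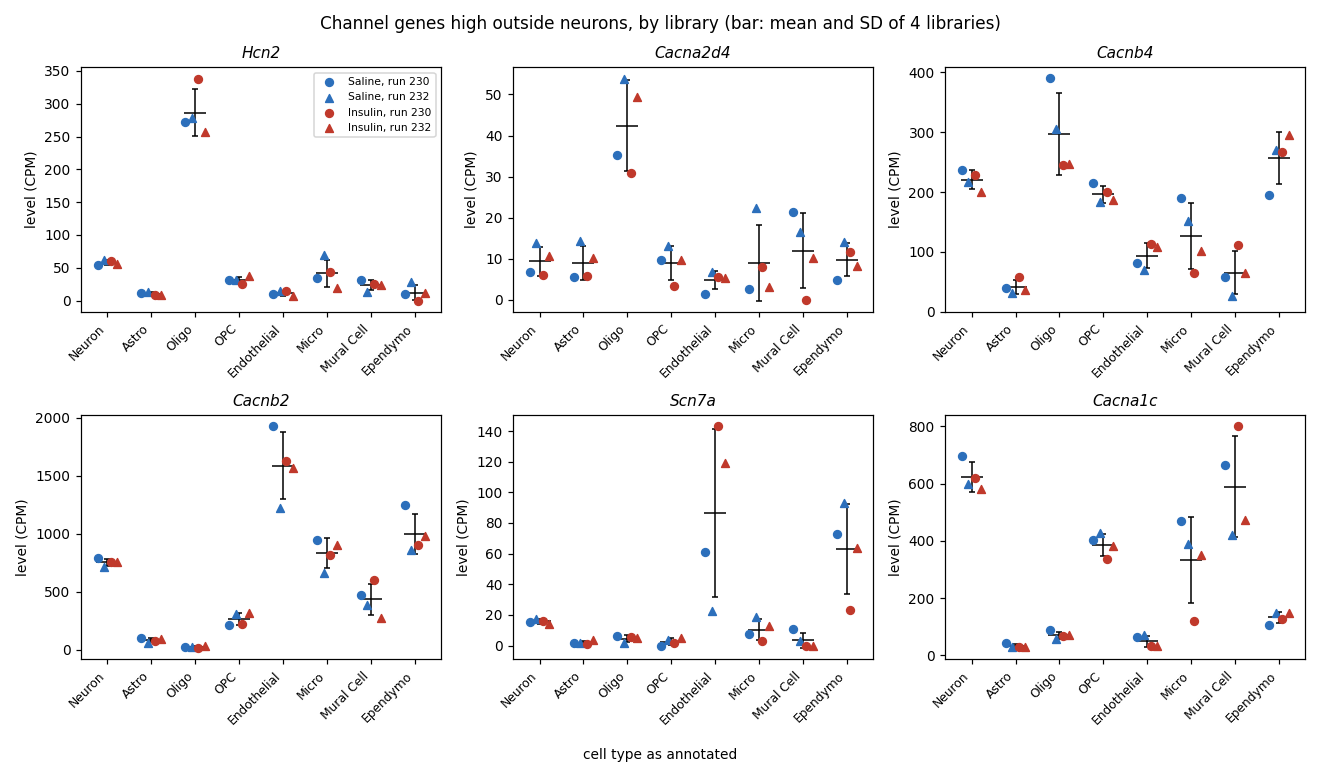
Levels (CPM) of 6 channel genes in each library by annotated cell type; blue marks Saline, red Insulin, circles run 230, triangles run 232, and the bar gives the mean and SD of 4 libraries. Each oligodendrocyte library exceeds every neuron library for Hcn2 and Cacna2d4, and Scn7a in the nuclei annotated Endothelial is at 22.3 and 61.1 CPM in the Saline and 119 and 143 CPM in the Insulin libraries.

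OPC, the dividing precursors of oligodendrocytes, had 20 members higher and 1 lower, where 24.9% and 16.2% of all genes were. Scn3a was at 175 and 151 CPM in the Saline and 160 and 137 CPM in the Insulin libraries, 82.4% of the neuronal level, Scn1a at 176 ± 22.3 CPM, Cacna1e at 266 ± 39.7 CPM and Nalcn at 424 ± 8.30 CPM. None of these 4 exceeded the highest neuron-only ratio in OPC, which was 0.918 (Gad1), and the member that did was Cacna2d4. The neuronal markers were also high, with a summed 1557 and 913 CPM in run 230 and 4554 and 3867 CPM in run 232, against 10592 to 12980 CPM in neurons. Nalcn stayed between 414 and 434 CPM in all libraries. A share of the neuronal profile, set by the median ratio of the 10 neuron-only transcripts, was then subtracted from each library. Counts below that share were set to 0. Of the 20 members 13 kept their call, among them Scn1a, Scn2a, Scn3a, Scn8a, Nalcn, Unc79 and Unc80, and Cacna1b lost it.

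Annotated microglia had 18 members higher and 0 lower (24.0% and 12.7% of all genes). Cacna1e was at 373 and 385 CPM in the Saline libraries and at 80.8 and 344 CPM in the Insulin libraries, Cacna1b at 142 ± 63.1 CPM and Cacna1i at 20.2 ± 12.1 CPM. None of these 3 exceeded the highest neuron-only ratio in these nuclei, which was 0.966, while Cacnb2 did. The median ratio to neurons was 0.527 over the members and 0.522 over the neuron-only transcripts, and of the 442 nuclei 12.4% had a member share above the 10th percentile of neurons. By library this was 21.1%, 13.1%, 0.746% and 18.8% (Saline run 230, Saline run 232, Insulin run 230, Insulin run 232). With the share of the neuronal profile subtracted, 6 of the 18 kept their call. The log2 of Cacna1b turned from 1.99 to -2.88, without a call. Before subtraction Cacna1b was at 47.9% of the neuronal level, below the median neuron-only ratio of 0.522. Cacnb2 kept its call, at 944, 658, 819 and 905 CPM in the same order.

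Astrocytes had 1 member higher and 24 lower, where 28.1% and 24.8% of all genes were. The higher one was Cacna2d2, an alpha2delta subunit, at 47.6 and 68.5 CPM in the Saline and 65.3 and 69.3 CPM in the Insulin libraries, 53.6% of the neuronal level and below the highest neuron-only ratio of 0.753. Cacna1d was not called there but stood at 223 ± 13.3 CPM. Subtracting the neuronal share left 2 of the 24 lower calls in astrocytes and 8 of 24 in oligodendrocytes. It left 3 of 17 in the Rax and Col23a1 nuclei, 2 of 11 in annotated mural nuclei and 0 of 6 in ependymal nuclei. Counts below the share were set to 0. Of 35 members compared, 15 in astrocytes and 10 in oligodendrocytes exceeded the median neuron-only ratio. The lost calls therefore do not show that the lower calls came from neuronal RNA. All 31 higher calls in neurons stood, but the subtraction lowers counts in the other types alone, so it could not test these calls. The same lowering enters the mean with which each other type is compared. The subtraction gave higher calls to 3 further members in astrocytes, 7 in the Rax and Col23a1 nuclei, 1 in annotated mural nuclei and 6 in ependymal nuclei. Among these, 2 had been lower calls, those of Scn2a in the Rax and Col23a1 nuclei (log2 3.71) and in ependymal nuclei (4.05).

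Channel genes differed between neuron populations. Of the 39 members 35 passed the filter, and in 35 populations with at least 10 nuclei in every library 343 of 1225 comparisons were higher and 267 lower than the mean of the other populations. These are 28.0% and 21.8%, against 13.0% and 8.15% over all genes tested. The 4 that did not pass were Scn4a, Scn10a, Scn4b and Cacna1s. The members are abundant, and a test finds more differences in abundant genes, so the shares are set side by side and not compared further. The summed member level ran from 6299 ± 430 CPM in M24.Avp/Oxt, the vasopressin and oxytocin neurons, to 10918 ± 412 CPM in M6.Slc17a8 and 10591 ± 333 CPM in M8.Nr5a1, the ventromedial neurons.

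**Figure D4:**
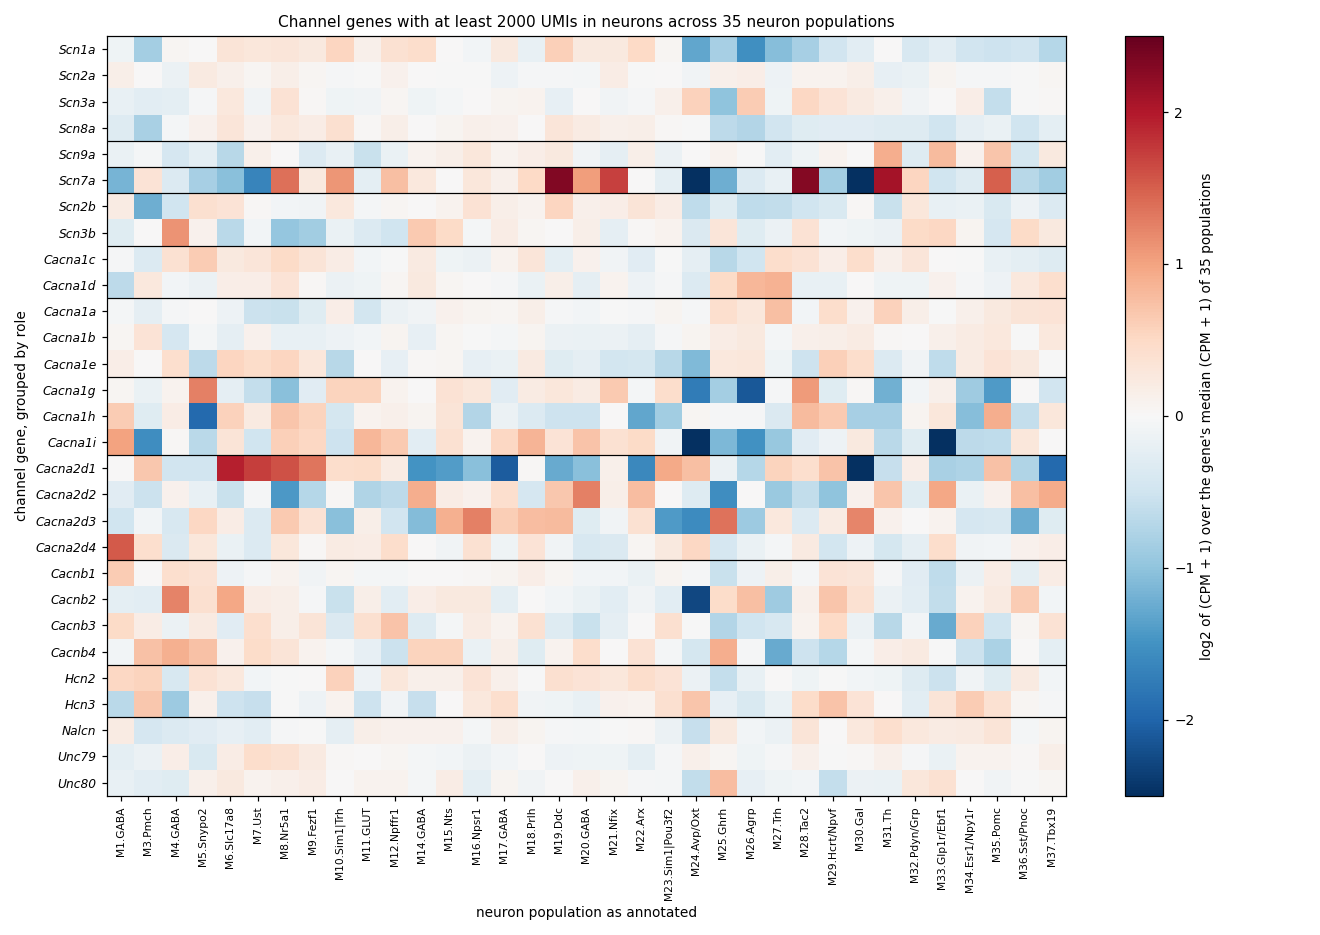
Levels of 29 of the channel genes with at least 2000 UMIs in neurons (rows, grouped by role) across 35 neuron populations (columns), as log2 of CPM + 1 over the gene's median. Scn7a and Cacna2d1 have strong colours in both directions, and Scn2a, Nalcn and Unc79 stay near their medians.

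Among the sodium channel pores, Scn1a and Scn8a varied together. Scn1a was highest in M19.Ddc at 362, 377, 360 and 369 CPM (Saline run 230, Saline run 232, Insulin run 230, Insulin run 232) and lowest in M26.Agrp, the hunger-promoting Agrp neurons, at 99.5, 81.8, 67.0 and 85.5 CPM. Those ranges lay far apart, and the log2 differences from the other populations were 0.82 ± 0.06 and -1.47 ± 0.09. Scn8a was highest in M10.Sim1|Trh at 231 ± 33.9 CPM and was 105 ± 9.11 CPM in M26.Agrp, its largest downward call. Across the 35 populations Scn1a and Scn8a had a Spearman rho of 0.839, the highest of 496 pairs among the 32 members with at least 2000 UMIs, where the median was 0.0246. Scn3a went the other way in Agrp neurons, with its highest level of 277 ± 15.4 CPM there, and was lowest in M25.Ghrh, the growth hormone releasing hormone neurons, at 87.4 ± 20.2 CPM. Scn2a varied little, from 312 ± 20.3 CPM in M31.Th to 422 ± 53.2 CPM in M5.Snypo2.

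Levels of further sodium channel genes also differed between populations. Scn9a was highest in M31.Th, the tyrosine hydroxylase neurons, at 569 and 531 CPM in the Saline and 485 and 544 CPM in the Insulin libraries, and lowest in M6.Slc17a8 at 173 ± 20.4 CPM. Scn11a, a pore of pain-sensing neurons, was at 16.7, 29.4, 11.2 and 12.5 CPM in M36.Sst/Pnoc (76 of its 232 neuronal UMIs), while the next population, M4.GABA, was at 4.28 ± 3.63 CPM. Scn10a, not tested, had 16 of its 71 neuronal UMIs in M31.Th, where every library held it (2.19 to 5.77 CPM). Scn7a was at 51.6 ± 6.07 CPM in M19.Ddc, 51.3 ± 5.45 CPM in M28.Tac2 (the neurokinin B neurons) and 43.5 ± 14.2 CPM in M31.Th, levels that overlap one another, and had 1 UMI in M30.Gal. Its median over the populations was 9.60 CPM.

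The beta subunit Scn2b had a rho of 0.683 with Scn1a and 0.660 with Scn8a. These are descriptions, and the points share libraries and depth. Scn2b was highest in M19.Ddc at 43.7 ± 7.58 CPM and lowest in M3.Pmch, the melanin-concentrating hormone neurons, at 12.2 ± 6.68 CPM. Scn3b was highest in M4.GABA at 117 ± 26.7 CPM and lowest in M8.Nr5a1 at 26.8 ± 2.30 CPM.

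The L-type pores split between populations. Cacna1d was at 982 and 949 CPM in the Saline and 992 and 946 CPM in the Insulin libraries of M26.Agrp, beside 992 ± 113 CPM in M27.Trh, and its median was 546 CPM. Cacna1c was highest in M5.Snypo2 at 906 ± 85.2 CPM and lowest in M25.Ghrh at 363 ± 34.5 CPM. Cacna1a was highest in M27.Trh at 1371 ± 138 CPM and had its largest downward call in M7.Ust at 559 ± 27.7 CPM. Cacna1b was highest in M3.Pmch at 405 ± 37.7 CPM and lowest in M4.GABA at 237 ± 21.9 CPM, and its rho with Scn1a, -0.757, was the most negative of the pairs. Cacna1e had its largest upward call in M8.Nr5a1 at 914 ± 60.9 CPM and was lowest in M24.Avp/Oxt at 295 ± 101 CPM.

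The 3 T-type genes had different leading populations. Cacna1g was at 127 and 119 CPM in the Saline and 112 and 102 CPM in the Insulin libraries of M5.Snypo2, and at 13.0, 6.55, 12.8 and 8.55 CPM in M26.Agrp. In M5.Snypo2 the related Cacna1h was at its lowest, 7.32 ± 2.39 CPM from 25 UMIs. Cacna1h was highest in M35.Pomc, the satiety-promoting Pomc neurons, at 59.0 ± 12.4 CPM and next in M28.Tac2 at 54.4 ± 20.7 CPM, which overlap. Cacna1i had its largest upward call in M11.GLUT at 61.6 ± 7.70 CPM and had 5 UMIs in M24.Avp/Oxt.

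Cacna2d1 had the widest range of the calcium channel genes with at least 2000 UMIs, with a highest level 3.86 times its median over populations. This subunit, which gabapentin binds, was at 2273, 1957, 2274 and 1982 CPM in M6.Slc17a8 and at 41.8, 22.3, 48.6 and 74.9 CPM in M30.Gal (same order of libraries), with log2 differences of 2.26 ± 0.08 and -3.63 ± 0.23. Cacna2d2 ran partly against it, with a rho of -0.711, and was highest in M20.GABA at 275 ± 37.7 CPM and lowest in M25.Ghrh at 38.0 ± 15.6 CPM. Cacna2d3 was highest in M25.Ghrh at 1217 ± 77.2 CPM and lowest in M24.Avp/Oxt at 159 ± 30.3 CPM. Cacna2d4 was called in 1 population, M8.Nr5a1, at 11.1 ± 4.62 CPM. Cacnb2 was at 1693 ± 23.1 CPM in M4.GABA and at 146 ± 17.5 CPM in M24.Avp/Oxt, and its rho with Cacna1e was 0.682. Cacnb4 had its largest upward call in M4.GABA, at 377 ± 44.3 CPM, and was lowest in M27.Trh, where the libraries ran from 66.3 to 101 CPM. Cacnb3 was highest in M12.Npffr1 at 25.3 ± 2.72 CPM, and Cacnb1 was called in 4 populations, lower in M33.Glp1r/Ebf1 and higher in M4.GABA (24.0 ± 4.63 CPM), M5.Snypo2 and M8.Nr5a1.

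The HCN genes had different leading populations. Hcn2 ran from 34.1 ± 5.54 CPM in M25.Ghrh to 78.8 ± 12.7 CPM in M10.Sim1|Trh, with its largest upward call in M3.Pmch at 77.4 ± 12.1 CPM. Hcn3 had its largest calls in M3.Pmch at 28.9 ± 6.97 CPM and in M4.GABA at 8.94 ± 4.79 CPM. Hcn4, the sinoatrial pacemaker gene, was highest in M25.Ghrh at 12.4, 10.7, 11.4 and 13.2 CPM from 25 UMIs. The same neurons held Hcn2 at its lowest.

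The leak channel genes had highest levels 1.35 times the median for Nalcn and Unc79 and 1.71 times for Unc80. Nalcn was highest in M31.Th at 648 ± 54.4 CPM and lowest in M24.Avp/Oxt at 324 ± 35.9 CPM. Unc80 was highest in M25.Ghrh at 697 and 793 CPM in the Saline and 763 and 746 CPM in the Insulin libraries, and lowest in M24.Avp/Oxt at 288 ± 32.6 CPM. Unc79 had its largest upward call in M8.Nr5a1, at 422 ± 44.1 CPM, and its largest downward one in M1.GABA, at 272 ± 99.4 CPM. Nalcn had a rho of 0.204 with Unc80 and 0.0440 with Unc79, although the 3 proteins form one complex.

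Single populations differed in how their calls divided. M26.Agrp had 7 members higher and 17 lower, where 19.7% and 14.8% of all genes were, and the higher ones included Cacna1d, Cacnb2, Scn3a, Cacna1e, Cacna1b and Cacna1a. M35.Pomc had 8 higher, led by Scn7a and Cacna1h, and 14 lower (11.6% and 8.51%). M24.Avp/Oxt had 3 higher (Cacna2d1, Hcn3 and Scn3a) and 13 lower (11.7% and 9.75%), and M8.Nr5a1 had 22 higher and 4 lower (24.7% and 15.9%).

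Genes whose proteins work with these channels were counted from lists. Of 11 sodium channel partners (ankyrins, spectrin, adhesion molecules and FGF homologous factors) 10 were tested over cell types, and all 10 were higher in neurons, where 35.7% of all genes were. Such a call sets neurons against the mean of the other types. By mean CPM only Sptbn4, Fgf12 and Fgf14 of these 10 were highest in neurons. Nfasc was at 943 CPM in oligodendrocytes against 199 CPM in neurons, and Cntn1 at 1313 CPM in OPC against 540 CPM in neurons. Of 21 calcium channel partners 17 were tested and 13 were higher in neurons, among them Rims1, an active zone scaffold, at 1002 ± 92.3 CPM. Pex5l, which anchors HCN channels, was not higher in neurons (log2 0.03, edgeR adjusted p = 0.95) and stood at 4028 CPM in oligodendrocytes against 202 CPM in neurons, beside the high Hcn2 there. The leak channel partner Fam155a was higher in neurons, at 3369 ± 328 CPM. In the populations 120 of 385 comparisons of sodium channel partners were higher and 97 lower, and 168 of 595 of calcium channel partners were higher and 143 lower, beside 13.0% and 8.15% over all genes.

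In neurons 17 of the 39 members separated the 2 runs: 7 had both libraries of run 232 above both of run 230 and 10 had them below, against 38.6% and 22.8% of 18961 genes. The differences were mostly small. Cacna2d4 was at 6.88 and 6.02 CPM in run 230 and 13.9 and 10.6 CPM in run 232, and the X-linked Cacna1f was at 4.94 and 3.32 CPM in run 230 and 2.44 and 1.91 CPM in run 232. Both are low, and run and sex cannot be told apart.

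The comparison of insulin with saline asks whether the treatment changed channel transcripts. In neurons 0 of 39 members were called by edgeR (adjusted p under 0.05), and 0 of 20275 genes were called (0%), with 103 genes and 0 members at an unadjusted p under 0.05. DESeq2 called 0 members as well. The median log2 change was -0.04 over the members and 0.00 over all genes tested, and 13 members were above and 26 below 0. Both Insulin libraries exceeded both Saline libraries for 3 members and lay below them for 5, against 8.74% and 11.6% of all genes. With 2 libraries a group, an exact permutation test of 1 gene cannot go below p = 0.333.

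The smallest p in neurons was that of the rare Scn4a, at 0.398 and 0.442 CPM in the Saline and 0.231 and 0.199 CPM in the Insulin libraries, from 24, 25, 13 and 10 UMIs (log2 -0.96 ± 0.41 SE, unadjusted p = 0.065 and adjusted p = 1.00 by edgeR). The other values were closer to 0. Cacna1i was at 47.4 and 42.1 CPM in the Saline and 38.5 and 35.6 CPM in the Insulin libraries (log2 -0.28 ± 0.14 SE, unadjusted p = 0.105 by edgeR). Cacna1h was at 32.7 and 33.7 CPM against 29.3 and 29.1 CPM, and Scn8a at 197 and 186 CPM against 183 and 168 CPM. For these 4 genes, and for Hcn4, the groups did not overlap. Cacna2d3 overlapped, at 587 and 545 CPM against 498 and 552 CPM. In the other direction Cacna2d2 was at 90.4 and 129 CPM in the Saline and 124 and 131 CPM in the Insulin libraries, which overlap (log2 0.22 ± 0.17). Cacnb3, at 14.2 and 16.6 against 16.6 and 17.5 CPM, Scn3b, at 50.1 and 48.2 against 50.2 and 55.3 CPM, and Cacna1d, at 548 and 577 against 591 and 588 CPM, did not overlap, each by a narrow gap. Cacna1s overlapped, at 0.447 and 0.460 against 0.444 and 0.716 CPM. With the run as a block 0 members were called in neurons.

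**Figure D5:**
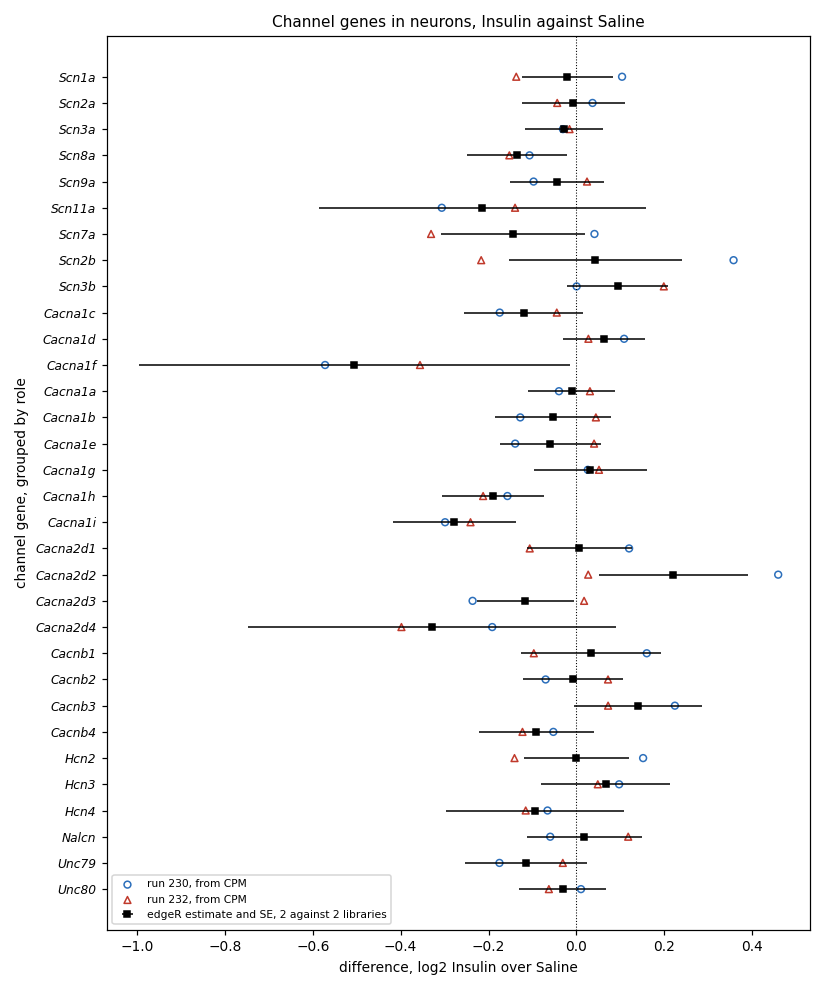
Log2 of Insulin over Saline in neurons for 32 of the channel genes with at least 200 UMIs there; squares give the edgeR estimate with its SE, circles the difference within run 230 and triangles that within run 232. Most estimates lie within 1 SE of 0. Cacna1i and Cacna1h lie below 0 in both runs, and Cacna1f and Cacna2d4 are lowest with the widest SE.

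Outside neurons 0 members were called in any of the 7 types by edgeR or by DESeq2, and edgeR called 0% of all genes in each. At an unadjusted p under 0.05 there were 0 to 5 members and 116 to 375 genes per type. In the Rax and Col23a1 nuclei Cacna1c was at 62.7 and 70.3 CPM in the Saline and 33.9 and 31.3 CPM in the Insulin libraries (log2 -1.05 ± 0.23, edgeR adjusted p = 1.00), and the groups did not overlap. Scn7a, at 61.1 and 22.3 against 143 and 119 CPM there, had a log2 of 1.57 and was called without the filter on low counts (adjusted p = 2.0e-06) and without 3 of the 4 libraries in turn, but not with the run as a block. In oligodendrocytes Cacnb4 was at 390 and 305 against 245 and 247 CPM (log2 -0.51 ± 0.21), and was called only without the Saline library of run 232. In OPC Cacna2d1 was at 175 and 409 CPM in the Saline and 116 and 215 CPM in the Insulin libraries (log2 -0.82 ± 0.40). It was lower after insulin within each run and was called with the run as a block (log2 -0.79, adjusted p = 0.0013), where 0.435% of all genes were. The summed neuronal markers of OPC were also lower after insulin within each run, at 913 against 1557 CPM and at 3867 against 4554 CPM, and Cacna2d1 was abundant in neurons; the part of neuronal RNA in this call was not tested. With that block no member was called in the other types, and 0.0935% of all genes were called in astrocytes and 0.0349% in ependymal nuclei.

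The remaining types gave less. Cacnb4 in annotated microglia was at 190 and 151 against 64.7 and 101 CPM, and 23 of 26 members lay below 0 there, beside the low neuronal RNA of the Insulin library of run 230; the part of that RNA was not tested. Both Insulin libraries lay below both Saline libraries for 13 of the 26 members and above them for 1, against 14.9% and 22.4% of all genes. Without the Insulin library of run 232, 16 members were called lower in annotated microglia. Hcn2 in astrocytes was at 11.4 and 13.5 against 8.55 and 8.11 CPM. Unc80 in annotated mural nuclei was at 63.8 and 49.1 against 99.5 and 116 CPM, from 12 to 34 UMIs. The summed neuronal markers of annotated mural nuclei were also higher after insulin, at 2056 and 1586 against 3072 and 2684 CPM. Of 19 members 16 lay above 0 there, and the part of neuronal RNA was not tested. Cacna2d1 in ependymal nuclei was at 19.5 and 279 against 104 and 45.5 CPM, with the neuronal markers high in the same Saline library of run 232, and its sign turned without that library (log2 1.63). A test of whether the insulin change differed between cell types called 0 of 33 members and 0 of 15676 genes. The smallest unadjusted p by edgeR among members were 0.0024 for Cacnb4 and 0.012 for Scn7a.

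In the 35 neuron populations 0 of 1046 member tests were called by edgeR, without a block and with the run as a block, and 0 by DESeq2, and 3 of 359137 tests over all genes were (0.000835%). At an unadjusted p under 0.05 there were 12 of the 1046 member tests and 7670 of the 359137 tests over all genes, a lower share for the members. In M28.Tac2 the smallest p was that of Scn3a, at 205 and 234 CPM in the Saline and 309 and 272 CPM in the Insulin libraries, which do not overlap. In M31.Th it was that of Cacna2d1, at 419 and 379 against 294 and 379 CPM, which overlap. The populations share the same 4 libraries, so these counts are not independent.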

How the data were processed

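Nuclei of mouse mediobasal hypothalamus were cleaned by flow sorting and sequenced with 10x 3′ chemistry, per the labels' protocols. The authors deposited 1 matrix of UMI counts (whole numbers, not normalized) and a table of other values, namely the run, treatment, cell type and neuron population of each nucleus. Cell Ranger and GRCm38 are named in the submitters' processing notes. The version, the gene annotation, intron counting, strand and doublet treatment are not given in the sources used here. Of 41156 barcodes 36523 matched the table, and the rest entered no comparison, nor did the nuclei annotated as doublets or left unassigned.

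Counts were summed per library and group, with at least 10 nuclei in every library. CPM divide by the UMIs of the same nuclei and library. edgeR 4.0.16 (R 4.3.3) fitted all genes by quasi-likelihood with TMM scaling and filterByExpr (minimum count 10, minimum total 15), with Benjamini-Hochberg adjustment and a threshold of 0.05. The tests between groups kept the library as a block. Insulin was compared with Saline without a block (2 residual degrees of freedom), and with the run as a block (1 residual degree of freedom) as an alternative. The run pairs 1 Saline with 1 Insulin library per the deposited table. In neurons, deviations of same-run libraries correlated at 0.726 over 18961 genes. The library names carry no replicate number. DESeq2 1.42.0, other scalings, no filter, fewer populations, subtraction of a neuronal share and leaving out libraries, shared barcodes or microglia were alternatives. Scripts were tested on simulated data. Gene spans come from GENCODE on GRCm38 and promoters from RefSeq on GRCm38.p6.

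The members and lists were chosen with earlier results of these data known. Named genes were the 3 largest upward calls per cell type, each member's largest calls up and down among populations, and the smallest p-values for insulin (5 per direction in neurons, 1 in each other type and in the Agrp, Pomc, Tac2, Ghrh and Th populations). Other values, among them those of populations set beside a named one, of Cacnb2 in microglia, Cacna1s in ependymal nuclei, Scn10a, and Scn7a with insulin, were added after they were seen. Some members and 1 marker enter the counts and fits but are not reported here, and the plots by gene leave those members out.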

Additional observations from a re-analysis of the deposited data

Results flagged for a closer look

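Barcodes left without an annotation, which entered no comparison, also held channel transcripts. Their members summed to 274096 of 37148305 UMIs, or 7378 CPM, where 3 counts correspond to 0.0808 CPM. This level lay between that of annotated microglia, at 4935 ± 1607 CPM (SD, n = 4), and that of neurons, at 8676 ± 219 CPM. It was singled out because it is a signal in data outside the comparisons.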

How the results depend on the processing

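The 171 member calls between cell types ran from 150 to 174 without 1 library and from 160 to 186 under the other alternatives, apart from subtraction of the neuronal share, which gave 102 calls in all and 16 lower ones. That subtraction left 85 of the 171 and turned Cacna1b in annotated microglia to a log2 of -2.88. Before it, Cacna1b was there at 47.9% of the neuronal level, below the median neuron-only ratio of 0.522. Counts below the subtracted share were set to 0. The 610 calls between populations ran from 487 without the library block to 611. Of 865 values of genes taken by the naming rule under these alternatives 833 held, 31 lost their call and 1 reversed. For insulin, 0 members were called in neurons under any alternative, with the run as a replicate block included. In the other cell types 1 was called without a filter on low counts and 1 with the run as a replicate block, and 1 to 20 without 1 library. The 20 came without the Insulin library of run 232, which leaves 1 Insulin library assumed to vary like the others. In the populations the replicate block gave 0 calls, and leaving out 1 library gave 0 to 3. The 3 came without the Saline library of run 232 (among them Cacna2d2 in M21.Nfix and Cacna1e in M24.Avp/Oxt) and 2 without that of run 230 (among them Cacna2d1 in M21.Nfix). Depth limits the rare pores: Scn4a, Scn10a, Scn4b and Cacna1s had 61 to 114 UMIs in all neurons.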
